A study of Mus musculus with 2 samples.

Results

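The genes described here are 10 components of bone morphogenetic protein (BMP) signalling in mouse skin, taken by name from the 32286 features that both matrices listed. They are the ligand genes Bmp2 and Bmp7, the antagonist genes Fst and Sostdc1, the inhibitory Smad genes Smad6 and Smad7, and the target genes Id1, Id2, Id3 and Id4. The rule that selects them uses gene names and no threshold on a measured value, though the set was drawn up with earlier results of these data known. Droplet single-cell RNA-seq was available for 1 library per genotype. The GOF library carried Krt14rtTA and Survivin GOF on top of Involucrin-CREER/Rosa-SmoM2, and the control library carried Involucrin-CREER/Rosa-SmoM2 alone. Both genotypes therefore express SmoM2, an activated form of the hedgehog transducer Smoothened that is tagged with YFP, after recombination by a Cre under the involucrin promoter, which is active in differentiating keratinocytes. The GOF genotype also carries an rtTA under the Krt14 promoter, active in basal keratinocytes, and a Survivin gain-of-function allele tagged with mCherry. Skin epidermal cells had been sorted for YFP and high integrin α6, without the bulge stem cell marker CD34. The study asked what Survivin does in the formation of basal cell carcinoma. The age, sex and number of mice behind each library are not given in the sources used here. With 1 library per genotype there was no replicate check, no test of a difference was possible, and every interval below covers counting error only.

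BMP ligands bind paired serine/threonine kinase receptors that phosphorylate Smad1, Smad5 and Smad9, which enter the nucleus with Smad4 and switch on genes such as the Id genes. Id proteins are helix-loop-helix proteins without a DNA-binding region that sequester E proteins, and in skin and hair follicle BMP signalling is known for holding stem cells at rest and for driving differentiation. Smad6 and Smad7 are themselves induced by the pathway and restrain it, while secreted antagonists such as follistatin and the product of Sostdc1 bind ligands or receptors outside the cell.

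Only cells with 1500 or more detected genes and no more than 10% mitochondrial UMIs (unique molecular identifiers, counts of captured RNA molecules) were used. This left 6494 GOF and 10294 control cells after doublet removal, with medians of 12324.5 and 7648 UMIs per cell. The cells fell into 26 clusters, made without the member genes, and 4 classes were named from marker lists. Hedgehog-high cells (clusters 5, 10, 11 and 21; 1032 GOF and 1807 control cells) had 5 to 9 of 12 markers at least 2-fold up in each cluster and Gli1, a direct hedgehog target, at 47.5 to 80.0 CPM (the gene's UMIs scaled to a fixed total per class and library) in the GOF and 71.0 to 79.5 CPM in the control library. Scale cells of the tail (cluster 9; 239 and 447 cells) showed 5 of 5 scale markers at least 2-fold up, and upper follicle cells (cluster 3; 391 and 320 cells) showed 7 of 9 of theirs. Basal cells (clusters 1 and 7; 1437 and 1527 cells) rested on 4 and 5 of 10 basal markers and were split by library, since cluster 1 held 94.3% of the GOF and 11.4% of the control basal cells. YFP RNA stood at 28.1 to 35.4 CPM in the GOF and 29.3 to 45.0 CPM in the control hedgehog-high clusters. In the scale, basal and upper follicle clusters it stood at 0.59 to 2.68 CPM in the GOF and 3.12 to 6.20 CPM in the control library. Cells of these other classes thus held little YFP RNA although the sort was for YFP. Birc5, which encodes Survivin, stood at 788 CPM in GOF and 54.9 CPM in control cells, 14.4-fold higher. The libraries also differed in sex: 27.5% of GOF and 74.8% of control hedgehog-high cells had a Y-linked UMI and no Xist UMI and are called male-called below, and for scale cells the shares were 11.3% and 76.7%. The libraries shared 84 barcodes, 20 of them among kept cells. The level of a gene below is its UMIs summed over the cells of a class in a library, as CPM of that class.

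RefSeq promoter windows on GRCm38.p6 were at hand for 4 of the 10 genes, Smad6, Id2, Id3 and Id4, and are shown because all 4 encode feedback components or targets that read the pathway out. Each runs 5′ to 3′ on the gene's strand from 250 bases before to 10 bases after the annotated start. Windows of 300 bases were searched on both strands for GGCGCC, a GC-rich Smad1/5 element that is its own reverse complement, for the palindromic Smad box GTCTAGAC, and for the single Smad box CAGAC, whose reverse complement is GTCTG. The 3 motifs do not overlap in these windows, and capitals mark their letters.
Smad6 (chr9:64022050-64022309, minus strand): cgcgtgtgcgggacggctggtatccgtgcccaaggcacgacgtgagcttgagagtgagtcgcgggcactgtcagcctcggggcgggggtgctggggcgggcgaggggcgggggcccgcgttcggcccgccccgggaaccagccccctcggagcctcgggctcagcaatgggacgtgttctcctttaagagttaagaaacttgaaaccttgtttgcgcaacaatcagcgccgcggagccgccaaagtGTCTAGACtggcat
Id2 (chr12:25096083-25096342, minus strand): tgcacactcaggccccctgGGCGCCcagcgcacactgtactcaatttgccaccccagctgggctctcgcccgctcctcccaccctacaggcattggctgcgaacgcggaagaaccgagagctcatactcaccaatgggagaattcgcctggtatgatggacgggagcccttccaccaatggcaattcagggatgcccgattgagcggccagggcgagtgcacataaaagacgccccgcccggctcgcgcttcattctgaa
Id3 (chr4:136143572-136143831, plus strand): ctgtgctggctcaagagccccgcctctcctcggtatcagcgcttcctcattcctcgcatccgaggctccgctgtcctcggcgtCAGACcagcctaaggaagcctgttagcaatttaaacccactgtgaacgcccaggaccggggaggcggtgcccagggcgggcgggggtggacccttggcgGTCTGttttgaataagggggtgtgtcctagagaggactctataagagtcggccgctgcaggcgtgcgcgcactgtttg
Id4 (chr13:48260866-48261125, plus strand): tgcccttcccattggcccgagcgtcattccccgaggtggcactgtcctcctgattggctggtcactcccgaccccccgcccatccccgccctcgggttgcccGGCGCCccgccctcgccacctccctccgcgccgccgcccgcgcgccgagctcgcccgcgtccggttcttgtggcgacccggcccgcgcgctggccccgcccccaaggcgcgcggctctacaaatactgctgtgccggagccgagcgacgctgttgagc
The palindrome in Smad6 lay across the start, from position -4 to 4, and 0.213% of 32851 promoter windows held it. GGCGCC was found in Id2 from -231 to -226 and in Id4 from -148 to -143, and in 11.9% of all windows. The Id3 window held CAGAC from -167 to -163 and GTCTG from -68 to -64, a letter sequence present in 49.6% of all windows. The Id2 and Id3 windows lie inside the GENCODE spans of their genes, so the annotated starts differ between the sources. These matches describe letters only.

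Across the 4 classes the ligand genes differed most in upper follicle cells, where Bmp2 was lowest and Bmp7 highest. Bmp2 (ENSMUSG00000027358, chr2:133552159-133562885, mm10), which encodes a ligand of hair follicle and bone development, was highest in hedgehog-high cells, with 30.5 CPM in the GOF (95% interval 27.8 to 33.4) and 20.3 CPM in the control library (18.2 to 22.7). Basal cells had 24.5 and 19.3 CPM of Bmp2, scale cells 7.42 and 9.30 CPM, and upper follicle cells 2.63 and 5.30 CPM. In the control library the intervals of hedgehog-high and basal cells overlapped, as did those of scale and upper follicle cells, whereas all 4 GOF intervals were apart. Bmp7 (ENSMUSG00000008999, chr2:172868012-172940321), a ligand gene also known as osteogenic protein, was highest in upper follicle cells, with 93.1 CPM in the GOF (86.0 to 101) and 118 CPM in the control library (107 to 130). Hedgehog-high cells had 47.6 and 53.5 CPM of Bmp7, scale cells 43.6 and 63.3 CPM, and basal cells 27.2 and 29.0 CPM. The intervals of hedgehog-high and scale cells overlapped in both libraries and those of the other neighbours in the order were apart.

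Both antagonist genes were high in upper follicle and hedgehog-high cells. Fst (ENSMUSG00000021765, chr13:114452290-114458951) encodes follistatin, which binds activins and, more weakly, BMPs. It stood at 222 CPM in GOF and 233 CPM in control upper follicle cells and at 81.0 and 105 CPM in hedgehog-high cells. Basal cells had 9.93 and 13.6 CPM of Fst, and scale cells had 2.38 CPM in the GOF library (8 UMIs) and 13.95 CPM in the control library (54 UMIs). Only the control scale and basal intervals overlapped. Sostdc1 (ENSMUSG00000036169, chr12:36314139-36318452), a secreted antagonist of BMP and Wnt signals also called ectodin, had 524 CPM in GOF and 443 CPM in control hedgehog-high cells. Upper follicle cells, at 523 and 461 CPM of Sostdc1, could not be told apart from them by their intervals in either library. Basal cells had 93.8 and 99.3 CPM of Sostdc1 and scale cells 15.4 and 35.65 CPM, all apart.

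The inhibitory Smad genes differed in how much could be measured. Smad6 (ENSMUSG00000036867, chr9:63953076-64022059), whose product preferentially restrains BMP receptors, was sparse, with 2.49 to 6.83 CPM over the GOF classes and 3.84 to 5.94 CPM over the control classes, and every pair of neighbouring intervals overlapped. Smad7 (ENSMUSG00000025880), whose product restrains both BMP and TGF-beta receptors, stood at 82.75 CPM in GOF hedgehog-high cells (78.3 to 87.4) and 64.9 CPM in control hedgehog-high cells (61.0 to 69.0). Its 3 other classes lay between 41.6 and 51.65 CPM in the GOF and between 39.0 and 42.1 CPM in the control library, with overlapping intervals among neighbours and a gap to the hedgehog-high cells.

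The Id genes, whose products hold E proteins away from DNA, did not share an order. Id1 (ENSMUSG00000042745, chr2:152736251-152737410) ran from scale cells (378 CPM in the GOF and 274 CPM in the control library) through basal (298 and 239 CPM) and hedgehog-high cells (284 and 212 CPM) to upper follicle cells (259 and 159 CPM). The basal and hedgehog-high intervals overlapped in the GOF library and were apart in the control library. Id3 (ENSMUSG00000007872, chr4:136143497-136145755) was highest in basal cells (225 and 171 CPM), followed by hedgehog-high (196 and 144 CPM), scale (162 and 109 CPM) and upper follicle cells (66.1 and 42.9 CPM), with all neighbours apart in both libraries. Id2 (ENSMUSG00000020644, chr12:25093799-25097140) had 95.9 and 105 CPM in scale cells, 81.8 and 118 CPM in hedgehog-high cells, 64.0 and 78.1 CPM in basal cells and 43.2 and 34.6 CPM in upper follicle cells. Scale and hedgehog-high cells overlapped for Id2 in both libraries. Id4 (ENSMUSG00000021379, chr13:48261228-48266026) was highest in hedgehog-high cells, at 50.6 and 45.2 CPM, against 34.5 and 21.2 CPM in upper follicle, 19.8 and 19.1 CPM in basal and 14.25 and 13.95 CPM in scale cells. Basal and scale cells overlapped for Id4 in both libraries, and upper follicle and basal cells in the control library.

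**Figure D1:**
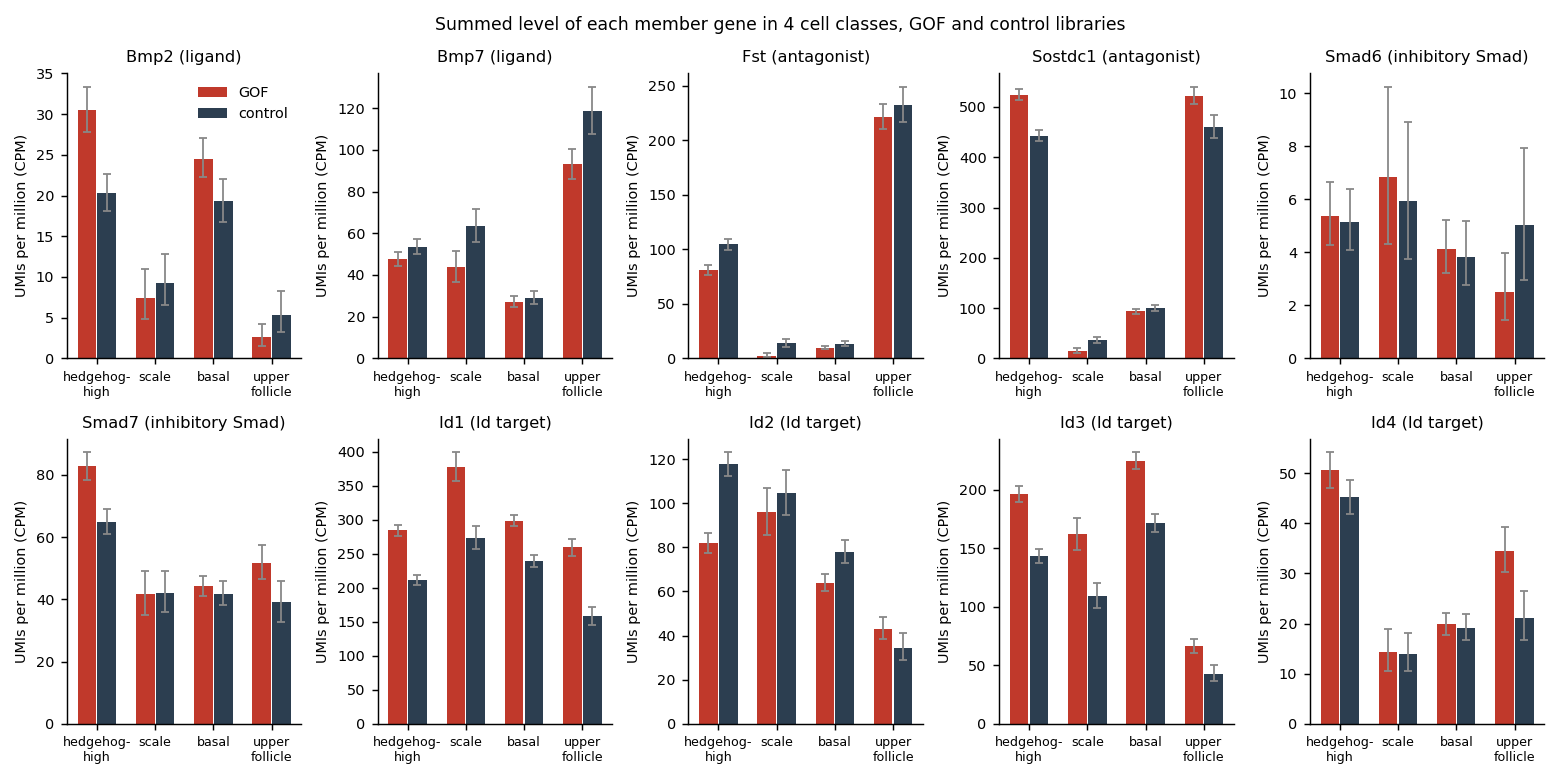
Level of each of the 10 genes in 4 cell classes. The y axes give CPM from UMIs summed per class and library, 1 panel per gene, with GOF bars left of control bars and whiskers for exact 95% Poisson intervals. Fst reached 222 CPM in GOF and 233 CPM in control upper follicle cells, while Bmp2 and Id4 had their highest bars in hedgehog-high cells.

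Hedgehog-high cells were next set against each other class within each library, as a description, calling a gene where it was at least 1.5-fold apart in the same direction in both libraries with at least 20 UMIs in each. Over scale cells 5 of the 10 genes were higher (Bmp2, Fst, Sostdc1, Smad7 and Id4) and 0 lower, beside 45.8% of all tested genes (37.1% higher and 8.71% lower). CPM scaling tilts this contrast, since all genes together had a median log2 ratio of 0.55 in the GOF and 0.43 in the control library, against 0.13 and 0.09 under TMM scaling. Under TMM the called genes were Bmp2, Fst, Sostdc1 and Id4 as higher and Id1 as lower, and the share of all called genes that were higher was 62.8% in place of 81.0%. Relative to the median of all genes, Fst was 4.54 log2 units higher in hedgehog-high than in scale cells of the GOF library and 2.48 in the control library. Sostdc1 was 4.53 and 3.20 higher, Bmp2 1.49 and 0.70, and Id4 1.27 and 1.26. The antagonist genes thus gave the widest differences of the set, 34.1-fold and 7.50-fold for Fst and 34.0-fold and 12.4-fold for Sostdc1 on the CPM scale, in the GOF and control library in that order.

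Over basal cells, 5 genes were higher in hedgehog-high cells (Bmp7, Fst, Sostdc1, Smad7 and Id4) and 0 lower, beside 29.7% of all genes (23.8% higher and 5.87% lower). The median of all genes was 0.30 in the GOF and 0.33 in the control library, and under TMM 3 calls remained by name (Fst, Sostdc1 and Id4), with 59.5% of all called genes higher in place of 80.2%. Relative to the median, Fst was 2.73 and 2.62 log2 units higher, Sostdc1 2.18 and 1.83, and Id4 1.05 and 0.91. Id1 and Id3 lay below the median of all genes, by -0.37 and -0.51 for Id1 and by -0.50 and -0.58 for Id3.

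Over upper follicle cells, Bmp2, Smad7, Id2 and Id3 were higher in hedgehog-high cells and Bmp7 and Fst lower, beside 26.8% of all genes (17.8% higher and 9.06% lower). Bmp2 differed most, 11.6-fold in the GOF (95% interval 7.25 to 19.7) and 3.84-fold in the control library (2.42 to 6.46). Id3 was 2.97-fold and 3.35-fold higher, and Id2 1.90-fold and 3.41-fold higher. Bmp7 was 1.95-fold and 2.22-fold lower and Fst 2.74-fold and 2.22-fold lower. The median of all genes was 0.20 in the GOF and 0.16 in the control library, and Smad7 was no longer called under TMM scaling. By CPM only Smad7 of the 10 was higher than in each of the 3 other classes, beside 11.3% of all genes, and none was lower, beside 1.11%. Under TMM none was higher than in all 3.

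Within the hedgehog-high class the members split along the 4 clusters rather than moving as a block. Cluster 5 was high for Fst (190 CPM in the GOF and 150 CPM in the control library) and low for Id2 (29.7 and 48.1 CPM). Cluster 10 was low for Fst (23.6 and 29.0 CPM) and had the most Smad7 of all clusters (104 and 84.0 CPM). Cluster 11 combined Fst (140 and 198 CPM), Sostdc1 (794 and 565 CPM), Bmp2 (51.0 and 29.6 CPM) and Id2 (133 and 178 CPM). Cluster 21 had the highest Bmp7 of the 4 (78.8 and 89.6 CPM), with Id2 at 154 and 165 CPM and Fst at 28.3 and 59.5 CPM. Fst and Id2 were thus both high in cluster 11, but each was high without the other in clusters 5 and 21. Id1 varied less among the 4, from 211 to 307 CPM in the GOF and from 170 to 225 CPM in the control library.

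**Figure D2:**
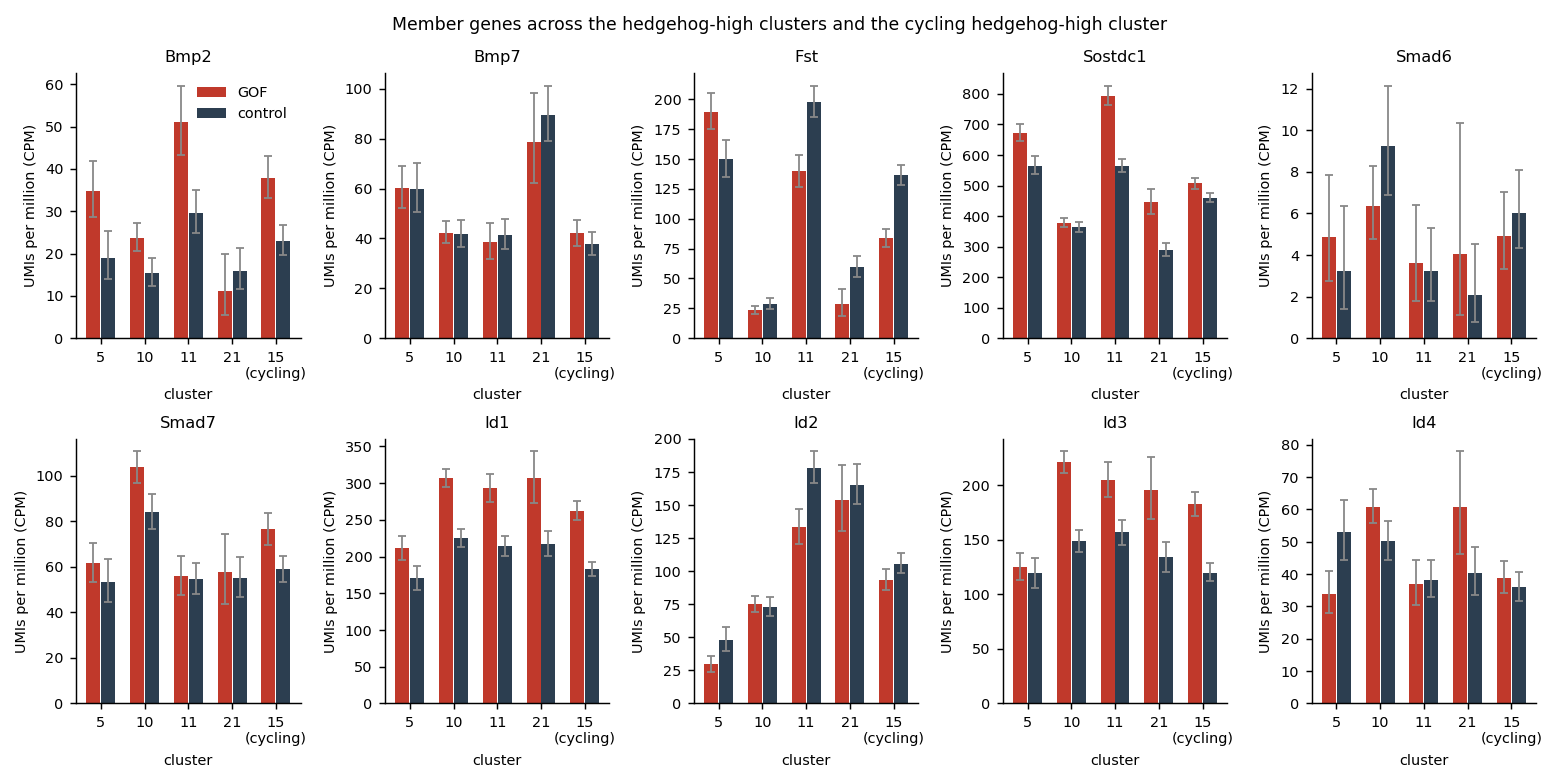
Member genes in the 4 hedgehog-high clusters and in the cycling hedgehog-high cluster 15. The y axes give CPM, the x axes the cluster number, bars are GOF left of control, and whiskers are exact 95% Poisson intervals. Fst is high in clusters 5 and 11, and Id2 in clusters 11 and 21, in both libraries.

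The cycling hedgehog-high cluster 15 (284 GOF and 647 control cells), kept apart from the class, lay within the range of the other 4 for most members. It had 37.8 and 22.9 CPM of Bmp2, 83.7 and 136 CPM of Fst, 507 and 461 CPM of Sostdc1, 262 and 183 CPM of Id1 and 93.4 and 106 CPM of Id2. For Bmp7 it stood at 42.1 CPM in the GOF library and at 37.9 CPM in the control library, and the control value lay below all 4 non-cycling control clusters. Id4 (38.8 and 36.0 CPM) was likewise lowest there among the control clusters.

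The 2 genotypes were then compared class by class, calling a gene at a ratio of at least 1.5-fold in either direction with at least 20 UMIs over both libraries. In hedgehog-high cells 1 of 10 genes was called, Bmp2, beside 15.3% of 13430 tested genes (7.88% higher and 7.42% lower), so the count stood near the background. Bmp2 was 1.501-fold higher in GOF cells (30.5 against 20.3 CPM, interval 1.30 to 1.74), at the edge of the fold. In male-called cells it had 28.6 CPM in the GOF and 20.7 CPM in the control library, a log2 ratio of 0.47 that is no longer past the fold. Within clusters 5, 10 and 11 the Bmp2 ratios were 1.83 (1.29 to 2.63), 1.54 (1.19 to 2.01) and 1.72 (1.36 to 2.18). Within cluster 21 the ratio was 0.70 (0.33 to 1.37), from 11 GOF and 46 control UMIs. The other ligand gene, Bmp7, had 47.6 CPM in GOF and 53.5 CPM in control hedgehog-high cells, a ratio of 0.89 (0.81 to 0.98).

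Among the antagonists in hedgehog-high cells, Fst was at 81.0 CPM in the GOF and 105 CPM in the control library, 1.29-fold lower (1.20 to 1.39), and Sostdc1 at 524 and 443 CPM, a ratio of 1.18 (1.15 to 1.22). Smad7 was at 82.75 and 64.9 CPM, a ratio of 1.27 (1.17 to 1.39), and Smad6 at 5.37 and 5.15 CPM, with an interval that included 1. None of these passed the fold, and with each library clustered on its own the log2 ratio turned to 0.53 for Fst and -0.13 for Smad7. The make-up of the class differed: cluster 10, low in Fst and high in Smad7, held 50.7% of GOF and 29.8% of control hedgehog-high cells, and clusters 11 and 21 held 21.5% and 8.53% in the GOF against 33.9% and 22.6% in the control library. Summed marker lists of other cell types differed as well, each with all its markers detected in both libraries. In GOF against control hedgehog-high cells the suprabasal list (7 markers) summed to 1669.5 and 4691 CPM, the scale list (5) to 382 and 1115 CPM, the sebaceous list (8) to 193 and 418 CPM, the upper follicle list (9) to 6588 and 10041 CPM, and the fibroblast list (6) to 2412 and 1350.5 CPM, nearly all of it Dcn (2399 and 1332 CPM). The part of the cluster make-up and of these lists in the class ratios was not tested beyond the values within clusters, in which Smad7 was higher in GOF cells of all 4 clusters and Fst was higher in GOF cells of cluster 5 and lower in those of clusters 10, 11 and 21.

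The Id genes in hedgehog-high cells went in different directions without passing the fold. Id1 had 284 CPM in GOF and 212 CPM in control cells, a ratio of 1.34 (1.28 to 1.41), and Id3 196 and 144 CPM, a ratio of 1.37 (1.29 to 1.44). Id2 had 81.8 and 118 CPM, 1.44-fold lower in GOF cells (1.34 to 1.55), and Id4 50.6 and 45.2 CPM, a ratio of 1.12 (1.01 to 1.24) that turned to a log2 ratio of -0.26 with each library clustered on its own. Within the GOF library the male-called cells differed from the female-called cells, with 224 against 315 CPM of Id1, 141 against 221 CPM of Id3 and 57.4 against 93.8 CPM of Id2. In male-called cells of both libraries Id1 stood at 224 and 212 CPM (ratio 1.06, 0.98 to 1.14) and Id3 at 141 and 146 CPM (0.96, 0.88 to 1.06), while Id2 stood at 57.4 and 118 CPM, a ratio of 0.49 (0.43 to 0.56). By class sums the higher Id1 and Id3 of GOF hedgehog-high cells was thus measured among cells that were not male-called, and the lower Id2 was wider in male-called cells. Within cluster 5, however, male-called cells had 235 and 166 CPM of Id1. Over all cells the Id2 ratio was 0.62 in cluster 5, 1.03 in cluster 10, 0.75 in cluster 11 and 0.93 in cluster 21. Clusters 5 and 10, lower in Id2 than 11 and 21, held 71 and 163 of 284 GOF male-called cells. They held 194 and 409 of 1351 control ones, and the part of this make-up was not tested. Sex and genotype cannot be told apart for female cells, since 600 GOF but 6 control hedgehog-high cells were female-called.

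In scale cells, which build the parakeratotic scales of tail skin, 2 of 10 genes were called, both antagonists and both lower in GOF cells, beside 14.7% of 10064 genes (5.29% higher and 9.4% lower). Fst had 2.38 CPM in GOF and 13.95 CPM in control cells, 5.87-fold lower (2.78 to 14.3), from 8 against 54 UMIs. Sostdc1 had 15.4 and 35.65 CPM, 2.31-fold lower (1.67 to 3.24), from 52 against 138 UMIs. The summed upper follicle markers were also lower, at 912 CPM in GOF and 1784 CPM in control scale cells, with 8 of 9 detected in each library and Gata6 at 0 in both. Most of that difference was in Krt17 (132 and 781 CPM), and Plet1 went the other way (11.3 and 10.3 CPM). Krt17 was itself higher in hedgehog-high (6159 and 9503 CPM) than in upper follicle cells (4315 and 6713 CPM). The hedgehog-high list, with all 12 markers detected, stood at 120.5 and 132.8 CPM, of which Hhip held 87.9 and 15.2 CPM. The part of these lists in the result was not tested. Barcodes that failed the filters held 37.9 CPM of Fst in the GOF and 59.8 CPM in the control library, and 163 and 196 CPM of Sostdc1, levels above those of the scale cells themselves. In male-called scale cells, of which the GOF library had 27, Fst rested on 1 UMI against 44, and Sostdc1 had 29.9 CPM in the GOF and 34.2 CPM in the control library, which ended its call.

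The Id genes of scale cells stayed within the fold. Id1 had 378 CPM in GOF and 274 CPM in control cells, a ratio of 1.38 (1.272 to 1.5003), and Id3 162 and 109 CPM, a ratio of 1.48 (1.30 to 1.69). In male-called scale cells the ratios were 1.52 for Id1 (1.27 to 1.80) and 1.41 for Id3 (1.07 to 1.84). Id2 and Id4 had intervals that included 1. Bmp7 was at 43.6 and 63.3 CPM, a ratio of 0.69 (0.56 to 0.85), just inside the fold.

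In basal cells 0 of 10 genes were called, beside 13.7% of 12278 genes (7.88% higher and 5.78% lower). Id1 had 298 CPM in GOF and 239 CPM in control cells, a ratio of 1.25 (1.19 to 1.31), and Id3 225 and 171 CPM, a ratio of 1.31 (1.24 to 1.39). Bmp2 was at 24.5 and 19.3 CPM (1.27, 1.08 to 1.51) and in male-called cells at 14.4 and 19.8 CPM, a log2 ratio of -0.46. The median gene was itself 0.12 log2 units higher in GOF basal cells by CPM and 0.01 under TMM, and 57.7% of called genes were higher by CPM against 42.3% under TMM. The class sums compare mostly cluster 1 of the GOF with cluster 7 of the control library. Within cluster 1, Id1 was 1.13 log2 units higher in GOF cells, Id3 0.97 and Smad7 0.94, while Sostdc1 was at -1.19 and Fst at -0.89. Within cluster 7 the log2 ratio was 0.19 for Id1, 0.62 for Id3 and 0.77 for Id4. The class value of 0 calls thus rests on a comparison of different cells. Leaving out cluster 7, to which the control library gave over 90% of the cells, gave 6 calls, beside 27.2% of 11622 genes in that setting. With each library clustered on its own the log2 ratios of the basal class turned to -0.67 for Id1 and -0.54 for Id3.

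In upper follicle cells 5 of 10 genes were called, 3 higher and 2 lower in GOF cells, beside 12.8% of 11342 genes (6.16% higher and 6.68% lower). The 3 higher genes were all Id genes. Id1 had 259 CPM in GOF and 159 CPM in control cells, 1.63-fold higher (1.49 to 1.80). Id3 had 66.1 and 42.9 CPM, 1.54-fold higher (1.28 to 1.86), and Id4 34.5 and 21.2 CPM, 1.63-fold higher (1.25 to 2.14). In male-called cells the 3 ratios were 1.84 (1.65 to 2.06), 1.56 (1.26 to 1.95) and 1.57 (1.14 to 2.18), so these calls held there. Whether the Id1 and Id3 ratios differ between upper follicle and hedgehog-high cells was not tested. Id2 was at 43.2 and 34.6 CPM, a ratio of 1.25 (1.01 to 1.55). The 2 lower genes were sparse: Bmp2 had 18 against 19 UMIs, 2.01-fold lower (0.9987 to 4.06), and Smad6 17 against 18 UMIs, 2.02-fold lower (0.98 to 4.16). Without doublet removal the clusters changed, the log2 ratio of Bmp2 turned to 0.61 and that of Id4 to -0.12. The hedgehog-high marker list stood at 73.0 CPM in GOF and 171.7 CPM in control upper follicle cells, with its part not tested. Fst (222 and 233 CPM) and Sostdc1 (523 and 461 CPM) differed by less than the fold.

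**Figure D3:**
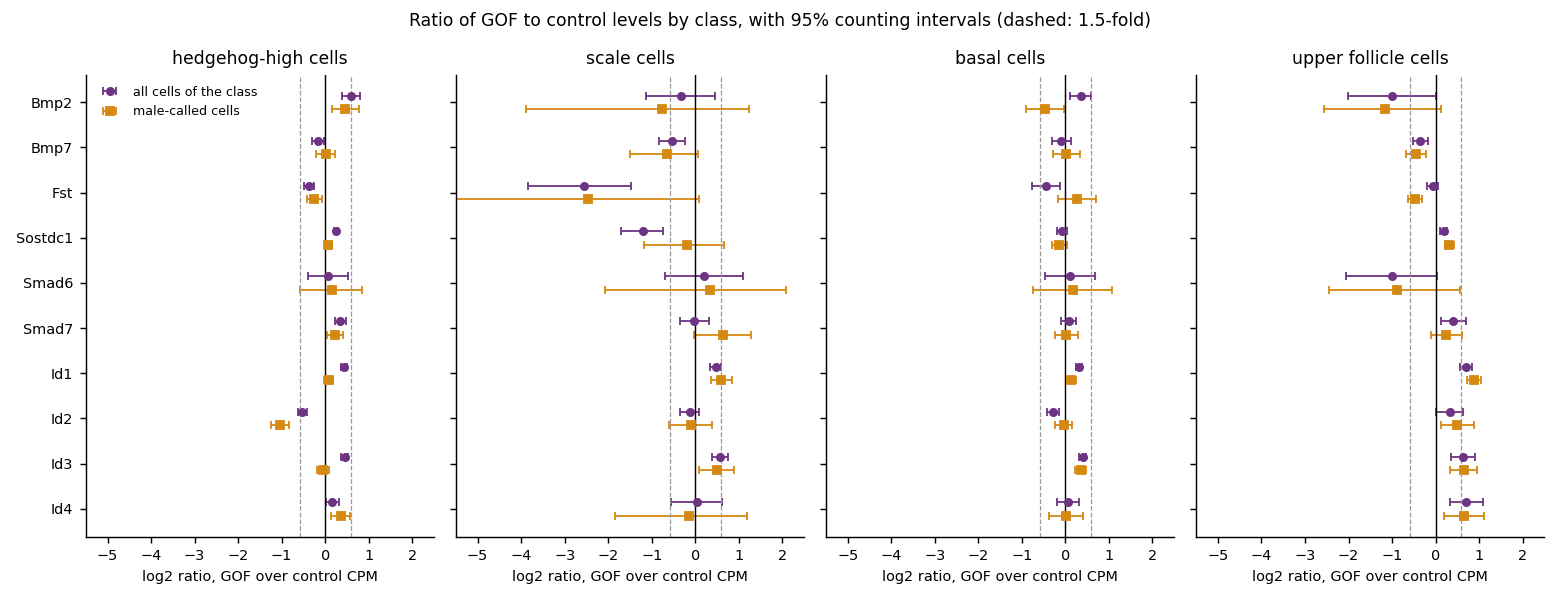
Ratio of GOF to control levels in each class. The x axes give log2 ratios of CPM, rows are genes, dashed lines mark 1.5-fold, and points carry 95% counting intervals, for all cells of the class and for male-called cells. Id1, Id3 and Id4 lie past the fold in upper follicle cells, and Fst and Sostdc1 below it in scale cells. The lower end of the male-called Fst interval in scale cells runs off the axis.

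Over the members as a whole the median log2 ratio was 0.20 in hedgehog-high, -0.07 in scale, 0.07 in basal and 0.25 in upper follicle cells, against 0.08, -0.01, 0.12 and 0.05 for all tested genes.

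Because class sums mix clusters, the ratios were also taken within each of the 20 clusters that held at least 50 cells of both libraries. Id1 was higher in GOF cells in 19 of them, with an interval above 1 in 18 and past the fold in 8, and its median log2 ratio was 0.52. Id3 was likewise higher in 19, with an interval above 1 in 17 and past the fold in 11, and a median of 0.61. The exception was the same for both, the immune cluster 22, where Id1 had 91.9 CPM in GOF and 135 CPM in control cells and Id3 53.9 and 56.4 CPM. Of all genes, 9.79% of the 7459 compared were higher in at least 19 of the 20 clusters and 2.15% lower, so genes leaned to the GOF side. The melanocyte cluster 14 showed the pattern too, with 310 and 156 CPM of Id1 and 366 and 219 CPM of Id3. The keratinocyte cluster 4, unnamed and rich in Ntrk2 and Adh7, had 186 and 84.6 CPM of Id1 and 68.1 and 33.3 CPM of Id3. The clusters share 2 libraries, so they are not replicates of the genotype.

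In male-called cells 13 clusters could be compared, and Id1 and Id3 were each higher in GOF cells in 12 of them, with medians of 0.50 and 0.63. Id1 was lower in cluster 15 and Id3 in the sebaceous cluster 17. Several hedgehog-high clusters showed little difference in male-called cells. In cluster 10 male-called cells had 226 CPM of Id1 in the GOF and 225 CPM in the control library, and 155 and 149 CPM of Id3. In the cycling cluster 15 they had 182 and 185 CPM of Id1 and 124 and 121 CPM of Id3. Male-called cells of cluster 5 had 235 and 166 CPM of Id1 but 118 and 117 CPM of Id3.

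Smad7 leaned the same way by smaller amounts, higher in GOF cells in 17 of 20 clusters with a median log2 ratio of 0.16. The median of all genes was itself 0.08 in hedgehog-high, -0.01 in scale, 0.12 in basal and 0.05 in upper follicle cells. No share of all genes was computed for this count or for those of the members below, so they are descriptions only. The Smad7 interval lay above 1 in 6 clusters and below 1 in 0, and the lowest of its 3 negative values was -0.02. Bmp2 was higher in 13 of the 18 clusters with enough UMIs, with an interval above 1 in 4 and below 1 in 0. The remaining members were more evenly divided. Id2 was higher in GOF cells in 10 of 20 clusters and lower in 10, and Id4 higher in 13 and lower in 7. The interval of Id2 lay above 1 in 6 clusters and below 1 in 4. Fst was lower in 15 of 20 (interval below 1 in 8 and above 1 in 2), Bmp7 in 13 (7 and 1) and Sostdc1 in 10 (7 and 7), and Smad6 was split 8 to 8 over 16 clusters.

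**Figure D4:**
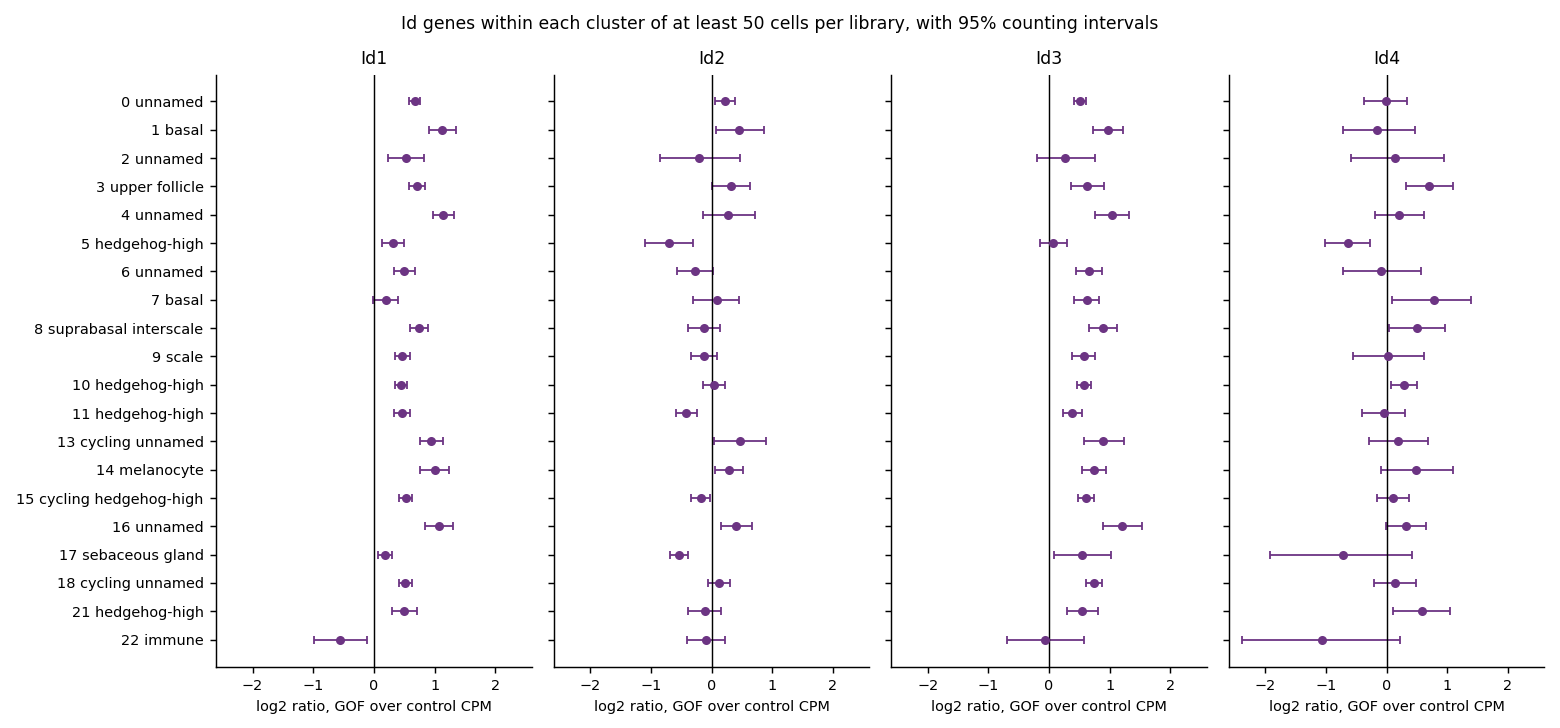
Id1, Id2, Id3 and Id4 within each cluster of at least 50 cells per library. The x axes give the log2 ratio of GOF to control CPM, rows are clusters with their names, and bars are 95% counting intervals. Id1 and Id3 lie right of 0 in 19 of 20 clusters, while Id2 lies on both sides.

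Outside the 4 classes the members reached further extremes. The unnamed cluster 16 held the highest Bmp2 (51.7 CPM in the GOF and 38.8 CPM in the control library), Id4 (137 and 110 CPM) and Smad6 (8.77 and 9.44 CPM) of all clusters, and in the GOF library also the highest Id1 (434 CPM) and Id2 (248 CPM). Its Smad6 values rest on 18 GOF and 9 control UMIs, and control cells of cluster 10 had 9.24 CPM. GOF Bmp2 was nearly as high in cluster 11, at 51.0 CPM, so the counts do not settle these ranks. Sostdc1 was highest in cluster 4, at 831 and 904 CPM. Id3 was highest in melanocytes, pigment cells of neural crest origin. Sebaceous gland cells (cluster 17) held the lowest Bmp2 (1.35 and 2.17 CPM), Smad7 (15.7 and 9.08 CPM), Id3 (18.4 and 12.6 CPM) and Id4 (2.03 and 3.35 CPM), yet their Id1 stood at 220 and 195 CPM.

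The share of cells with a UMI followed the levels once depth was equalised. After thinning each cell to 3000 UMIs, Id3 was found in 40.7% of GOF and 32.0% of control hedgehog-high cells, against 75.8% and 54.8% before thinning. In sebaceous cells, which had the lowest Id3, the thinned shares were 5.11% and 3.31% and the unthinned ones 27.2% and 18.2%. Id4 was found in 14.1% and 11.5% of thinned hedgehog-high cells and in 0.426% and 0.993% of sebaceous cells, and Bmp2 in 7.58% and 5.70% of hedgehog-high cells. Among sebaceous cells, 0 of 235 GOF cells held a Bmp2 UMI after thinning, which allows a share of up to 1.28% at that depth only, and 1.32% of control cells did. Unthinned shares of Bmp2 were 30.4% and 14.1% in hedgehog-high and 2.98% and 3.30% in sebaceous cells. Median depths before thinning were 12534 and 7079 UMIs for hedgehog-high and 22762 and 16446 UMIs for sebaceous cells. The hedgehog-high shares lay above the sebaceous ones although the sebaceous cells were deeper. Sebaceous cells held the lowest Bmp2, Id3 and Id4 of all clusters, so their shares are no independent measure of free RNA.

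Other genes of the pathway were described from lists, whose counts stand beside 7.88% of all 13430 tested genes higher and 7.42% lower in GOF hedgehog-high cells, and whose medians stand beside 0.08 for all genes on the log2 scale. Among 11 other BMP ligand genes 4 had enough UMIs in hedgehog-high cells, and 1 was lower, with a list median of -0.29. Bmp3, a ligand that opposes other BMPs, had 12.2 CPM in GOF and 22.9 CPM in control cells, a ratio of 0.53 (0.44 to 0.64). Within cluster 11, where Bmp3 was highest, it had 44.8 and 53.8 CPM. Bmp1, the most abundant of the list but a protease and not a ligand of the family, had 75.1 and 85.9 CPM. Of 12 receptors and co-receptors, with a median of 0.04, 3 were lower and 0 higher in GOF hedgehog-high cells: Bambi, a pseudoreceptor that dampens the signal (15.3 and 30.2 CPM), the type I receptor gene Bmpr1b (2.15 and 4.50 CPM) and Eng, a co-receptor best known from endothelium (2.15 and 3.41 CPM). The Bambi difference was widest in cluster 11, with 31.7 and 67.8 CPM, while cluster 10 had 10.1 and 9.60 CPM. The type II receptor gene Bmpr2 was at 130 and 108 CPM. Of 4 receptor and co-Smads (median 0.18), 0 were past the fold, with Smad4 at 112 and 87.7 CPM.

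Among 16 other antagonist genes 10 had enough UMIs in hedgehog-high cells, with a median of -0.01. Bmper (1.20 and 2.96 CPM) and Nog, which encodes noggin (1.90 and 3.02 CPM), were lower and 0 higher, and Crim1 was the most abundant at 180 and 144 CPM. The interval of the Nog ratio included 1 (0.38 to 1.01). None of 11 genes of Smad turnover and transcriptional brakes and none of 3 E protein genes passed the fold, with Ppm1a at 96.0 and 104.7 CPM and Tcf12 at 123 and 105 CPM. Of 12 tested among 14 further BMP target genes, 5 were higher and 1 lower, with a median of 0.29. Dlx3, a homeobox gene of hair and epidermal differentiation, had 18.1 CPM in GOF and 3.67 CPM in control hedgehog-high cells, 4.94-fold higher (3.71 to 6.69). That difference was widest in cluster 10, with 31.7 and 4.89 CPM, whereas cluster 11 had 2.61 and 3.003 CPM, and in male-called cells Dlx3 had 21.2 and 3.61 CPM. Msx2, another homeobox gene, had 53.3 and 31.5 CPM (1.69, 1.51 to 1.90), with 74.5 and 43.1 CPM in cluster 10, and Dlx1 had 17.2 and 9.46 CPM (1.82, 1.49 to 2.24). Hes1, which is also a Notch target, was lower at 71.2 and 107.5 CPM, and Gata3 was the most abundant at 285 and 259 CPM. Of 17 tested genes of the activin and TGF-beta arm (median -0.16), 1 was higher, Tgfb3 (68.1 and 40.01 CPM), and 4 lower. Among the lower ones were the activin subunit gene Inhba (3.10 and 5.28 CPM) and the co-receptor gene Tgfbr3 (2.02 and 4.37 CPM). Within cluster 21, where Inhba was highest, it was higher in GOF cells (29.3 and 13.1 CPM, ratio 2.23, 1.32 to 3.71). Its ratios in clusters 5, 10 and 11 were 0.499, 0.474 and 0.381, and in male-called cells 0.85 (0.49 to 1.42). For Tgfb3 the ratio was 1.33 in cluster 5, 1.23 in cluster 10, 2.001 in cluster 11 and 0.77 (0.22 to 2.13) in cluster 21. In male-called cells the Tgfb3 ratio was 1.83 (1.59 to 2.11).

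In scale cells the lists stand beside 5.29% of all genes higher and 9.4% lower. Dlx1 (7.13 and 3.10 CPM) and Dlx2 (22.6 and 12.1 CPM) were the 2 of 9 tested target genes that were higher in GOF cells, and Hes1 (102 and 164 CPM) was the 1 that was lower. Of the other lists, 1 of 1 tested ligand gene (Bmp1), 1 of 9 receptor genes (Acvr2b, 8 against 17 UMIs) and 3 of 12 activin and TGF-beta genes (Ccn2, Inha and Tgfbr3) were lower, with 0 higher, and 0 of 5 antagonist genes passed the fold. The ratio intervals of Acvr2b, Inha and Tgfbr3 included 1.

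In basal cells the background was 7.88% higher and 5.78% lower. Of 8 tested antagonist genes Nbl1 was higher (51.7 and 27.4 CPM), and Grem1 (6 against 34 UMIs) and Nog (3.05 and 5.35 CPM) were lower. Of 12 receptor genes Bmpr1b was higher (36 against 12 UMIs), and the activin receptor gene Acvr2b (2.81 and 5.44 CPM, ratio 0.52) and the co-receptor gene Rgma (6.70 and 10.35 CPM, ratio 0.65) were lower. Of 11 target genes Cdkn1a, which encodes the cell cycle inhibitor p21, was higher (52.9 and 29.9 CPM) and 0 were lower. Bmp3 was the 1 of 3 tested ligand genes that was lower (26 against 37 UMIs), and of the activin and TGF-beta genes Ccn2 and Tgfb3 were lower.

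In upper follicle cells the background was 6.16% higher and 6.68% lower. Of 10 tested receptor genes Acvr2a was higher (36.0 and 23.4 CPM) and Acvrl1 lower (2.05 and 3.34 CPM, 14 against 12 UMIs). Of 15 activin and TGF-beta genes Tgfb2 was lower (108 and 195 CPM) and 0 were higher. Of 9 target genes 1 was higher, Runx2 (26 against 9 UMIs), and 3 were lower, Dlx3 (11 against 16 UMIs), Msx2 (12 against 15 UMIs) and Foxn1 (13 against 11 UMIs). Dlx3 and Msx2 thus lay on the opposite side of the fold from hedgehog-high cells, though on few counts and with the difference between classes not tested. Bmp6 (43 against 34 UMIs) was the 1 of 2 tested ligand genes that was lower. Dand5 (18 against 19 UMIs) and Grem1 (24 against 23 UMIs) were the 2 lower of 9 antagonist genes, with 0 higher in either list. The ratio intervals of Acvrl1, Runx2, Foxn1, Bmp6, Dand5 and Grem1 included 1. In scale, basal and upper follicle cells, as in hedgehog-high cells, 0 genes of the receptor Smad, transcriptional brake and E protein lists passed the fold.

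Likeness of pattern was measured as Pearson's r of log2(CPM + 1) over 45 cluster-by-library sums, as a description, since these sums share 2 libraries and their depths. Among the members themselves Fst and Sostdc1 were most alike (r = 0.83), followed by Smad7 and Id4 (0.75), Bmp2 and Id4 (0.72), Bmp2 and Id3 (0.70) and Id1 and Id3 (0.68). Bmp7 and Id2 ran opposite (-0.44). Over all genes with at least 20 CPM in some cluster, the nearest to Fst were Lmo1 (0.84), Gpc4 (0.83) and Sostdc1 (0.83), and the nearest to Sostdc1 were Aopep (0.91), Lmo1 (0.88) and Ccl27a (0.87). Smad7 was nearest to Chd6 (0.93), Btbd7 (0.90) and Rev3l (0.88). Id4 was nearest to Azin2 (0.88), Hoxd11 (0.86) and Cadm1 (0.86), and Bmp2 to Trerf1 (0.85), Hdgfl3 (0.81) and Gas6 (0.81). Id3 had Slc39a10, Msx2 and Abracl at 0.81 each, of which Msx2 stands in the list of BMP target genes. Bmp7 was nearest to Slc40a1 (0.81), Esyt3 (0.81) and Slc43a2 (0.79). Id1 and Id2 had no close neighbour, with Id3 (0.68), Gja1 (0.65) and Ssx2ip (0.64) for Id1 and Celf2 (0.68), Pwwp2b (0.67) and Mtfr1l (0.64) for Id2. Smad6 was too sparse for this measure.

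**Figure D5:**
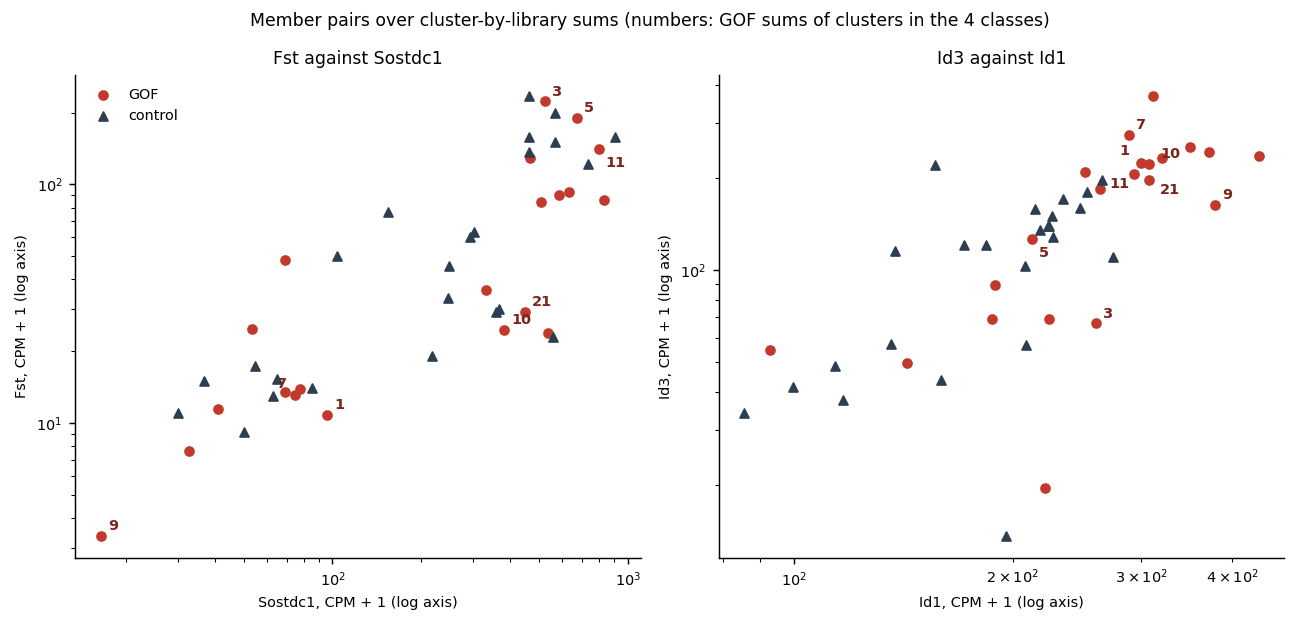
Pairs of member genes over cluster-by-library sums. Both axes are log axes of CPM + 1, circles are GOF sums and triangles control sums, and numbers mark GOF sums of clusters in the 4 classes. Fst and Sostdc1 varied together over clusters (r = 0.83), as did Id1 and Id3 (r = 0.68).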

How the data were processed

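The deposited values are whole-number counts of UMIs per gene and barcode, not normalized, and per the file headers came from Cell Ranger 6.1.1. R 4.3.0, Seurat 4.2.0 and the build mm10 are listed in the submitters' processing notes. The GOF matrix held 11438 barcodes with 126329382 UMIs and the control matrix 24844 barcodes with 146216083 UMIs. After the filters on cells given above, 6922 and 10993 barcodes remained. Scrublet scores were made per library, its automatic threshold marked 0 barcodes, and the top 6% of scores were removed instead, 428 and 699 barcodes.

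Log-normalized counts were clustered in scanpy 1.11.5 (Python 3.11.15, numpy 2.4.6, scipy 1.17.1, pandas 2.3.3, igraph 0.11.9) using 2000 variable genes, 30 components, 15 neighbours and Leiden resolution 1. The 10 members, Birc5, YFP, sex genes and mitochondrial and ribosomal protein genes did not enter, and no integration was applied. The unnamed Foxn1 and Hoxc13 cluster 0, the control-only scale cluster 25 and the cycling hedgehog-high cluster 15 were kept outside the classes.

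UMIs were summed per class and library and scaled to CPM. Intervals are exact 95% Poisson for levels, conditional binomial for ratios and Clopper-Pearson for shares. The steps were tested on simulated data. From each pathway list, genes past 1.5-fold with at least 20 UMIs (at most 3 in each direction and class) and the 2 most abundant could be named, and the 3 genes of most like pattern for each member. Genes that this rule selected with low counts are partly not described. A gene of these lists is not reported here. The members and lists were chosen with earlier results of these data known. In all, 14 planned and 4 added alternatives were computed. Gene coordinates come from GENCODE vM21 and promoter windows from RefSeq.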

Additional observations from a re-analysis of the deposited data

How the results depend on the processing

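The number of members called between GOF and control cells moved with several choices. In hedgehog-high cells the 1 call became 0 without doublet removal, at 2000 or more genes, at Leiden resolution 2 and without the hedgehog-high cluster with the fewest markers, and 2 with each library clustered on its own or without cells holding a cycling UMI. The share of all genes past the fold ran from 14.1% to 16.5% in these settings, against 15.3% in the main one. In scale cells 2 calls became 4 at 5% or less mitochondrial UMIs and without cycling-UMI cells. They became 1 at 100 UMIs or more and at resolution 2, and 5 in male-called or thinned cells. Past the fold in these settings were 17.4%, 17.1%, 6.25%, 12.99%, 30.6% and 20.4% of all genes, in that order, against 14.7% in the main one. In basal cells 0 calls became 2 without doublet removal, at resolution 2 and with own clustering, 3 with equal weight per cluster and 6 without the cluster made up to over 90% by 1 library. Of all genes 15.7%, 27.4%, 18.5%, 21.4% and 27.2% passed the fold there, in that order, against 13.7% in the main setting. In upper follicle cells 5 calls became 3 at 100 UMIs or more and at resolution 2, and 2 without cycling-UMI cells and after thinning. Beside these stood 5.44%, 13.2%, 17.7% and 17.6% of all genes, in that order, against 12.8% in the main setting. Over basal cells, 5 calls in hedgehog-high cells became 3 under TMM and median-of-ratios scaling, where 15.1% and 15% of all genes were higher in place of 23.8%. The causes were not tested. For single members, 591 values under alternatives stayed near the main value. Of 134 alternative values for members past the fold, 2 changed sign, upper follicle Bmp2 (0.61) and Id4 (-0.12) without doublet removal. Of 572 for members within the fold, 65 changed sign, and basal cells held 31 of all sign changes, hedgehog-high cells 15, scale cells 16 and upper follicle cells 5. Among them were basal Id1 (0.32, against -0.67 with own clustering), basal Bmp2 (0.35, against -0.46 in male-called cells) and scale Bmp2 (-0.33, against 0.69 at 5% or less mitochondrial UMIs). Fst in scale cells stayed past the fold in all 17 alternatives that gave a value (log2 ratio -3.00 to -0.91), Sostdc1 there in 14 of 18, and upper follicle Id1 in 17, Id3 in 16 and Id4 in 14 of 18. Bmp2 in hedgehog-high cells did so in 9 of 18. Scale and upper follicle cells were 1 cluster each, so several alternatives could not change their ratios. Among these were equal weight per cluster, leaving out clusters over 90% of 1 library, changes to clusters of other classes, and the minimum of UMIs. The counts above include such alternatives and are no measure of independent checks. The 4 alternatives that changed which clusters enter a class were chosen after seeing the data. No paired analysis was possible because each genotype has 1 library. Counts under 100 UMIs, as for Smad6 and scale Fst, leave wide intervals.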
